A study of Ovis aries with 18 samples.

Results

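The ovine major histocompatibility complex (MHC) on chromosome 20 (OAR20) was examined as the interval from 24 to 30 Mb of the Oar v3.1 assembly, and all SNPs of the deposited table with a position in it were taken, whatever their reads showed. There were 247 such SNPs in 47 genes, out of 24,355 SNPs in 5,810 genes in the whole table, and 485 SNPs in 104 genes lay on the rest of OAR20. RNA came from the perirenal adipose tissue, which is largely brown fat at this age, of 18 singleton pure bred merino fetuses at 132 days post conception, 16 female and 2 male. All were wild type, none was treated, they had a common sire, and their ewes were unrelated, so the 18 animals form 1 group with no control group. Both alleles of an animal were counted in the same library, and an animal is informative for allelic imbalance in gene expression (AI) at a SNP only if it was called heterozygous there. The reads counted at all SNPs ranged from 2,970,824 to 5,334,585 per animal, and the median depth at a SNP of the interval from 43 to 79 reads.

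The MHC is a dense block of genes that is inherited as long haplotypes. Its class I and class II genes encode the cell surface proteins that present peptides to T cells. Between them lies the class III region, which holds complement genes, stress and cytokine genes and many genes with no immune role. In sheep the block is split, and some class II genes lie elsewhere on OAR20, outside the interval. Several genes of the block have near-identical copies, among them C4, TNXB, HSP70 and the DQ genes, and reads of such copies cannot be told apart with certainty. No class I gene of the lists used here has a SNP in the interval. The class II genes are represented by 5 SNPs: 3 in DQA, 1 in DQA1 and 1 in HLA-DRA. The table is therefore mainly a view of the class III region, with 110 SNPs in 16 genes, the complement genes with their close neighbours STK19 and NELFE, with 36 SNPs in 4 genes, and the flanks of the class I genes, with 46 SNPs in 11 genes. The markers of adipocytes ADIPOQ, CIDEA, PLIN1 and UCP1 were in the table, 4 of 7 listed. UCP1, which uncouples respiration in brown fat, had between 6213 and 18,423 reads per SNP in every animal.

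SNPs were dense in the interval. There were 41.2 SNPs per Mb, compared with 11.96 per Mb over the 40.6 Mb that the remaining SNPs of OAR20 span, and 7.83 genes with a SNP per Mb compared with 2.56. A gene of the interval held a median of 3 SNPs, against 2 on the rest of OAR20 and 3 in the whole table. The Mb from 26 to 27, which holds most of the class III region, had 148 SNPs in 21 genes, the highest count among the 36 Mb windows of OAR20 with any SNP. C4 had 27 SNPs, NOTCH4 and TNXB 24 each, PRRC2A 17 and MDC1 15, whereas 10 genes had 1. Missense SNPs made up 31.6% of the interval, compared with 19.8% on the rest of OAR20 and 20.9% in the whole table, and among SNPs heterozygous in fewer than 15 animals the percentages were 26.5%, 18.3% and 18.9%. The median depth over SNPs was 70.7 reads per animal in the interval, 80.8 on the rest of OAR20 and 65.5 in the whole table.

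Many SNPs of the interval were called heterozygous in nearly every animal. Heterozygotes numbered 15 or more at 43 SNPs (17.4%), compared with 13.2% on the rest of OAR20 and 9.89% in the whole table, and 32 SNPs were called heterozygous in all 18. Of the 43, PRRC2A held 13, TNXB 10, BAG6 6 and C4 5. Such SNPs often stood within a few bases of each other, and 29 of them fell in 8 clusters in which neighbours were at most 10 bases apart. The clusters with the most SNPs lay in BAG6, a chaperone for newly made membrane proteins, with 6 SNPs in 9 bases at 26789768 to 26789776, all called heterozygous in 18 animals, and in PRRC2A, an RNA-binding protein, with 7 SNPs in 14 bases at 26807127 to 26807140. The shares in the PRRC2A cluster ran from 0.253 to 0.696, with 4 SNPs higher for the reference allele and 3 for the alternate allele. By contrast, the cluster of 3 SNPs in NOTCH4 at 26320405 to 26320409 had shares of 0.482 to 0.507 and no call. Genotypes from DNA were not analysed here, and how these calls arose was not tested.

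AI was measured as the reference share, which is the reads with the reference allele divided by all reads, summed over the animals called heterozygous. A share of 0.5 is balance, and a SNP was called when the Benjamini-Hochberg adjusted P-value over all tested SNPs of the table was under 0.05. In the interval 108 of 246 tested SNPs were called, which is 43.9%, compared with 44.6% on the rest of OAR20 and a background of 38% of the 24,244 tested SNPs. With SNPs heterozygous in 15 or more animals left out, 74 of 203 (36.5%) were called, close to 37.9% on the rest of OAR20. Of the 108, 80 had more reads of the reference allele and 28 more of the alternate allele, so that 74.1% of calls were towards the reference allele, close to 76.3% in the whole table. As a share of tested SNPs, the background of calls towards the reference allele was 28.9%. With the median share of all SNPs, 0.519, as the balance point, 110 SNPs (44.7%) were called, 60.9% of them towards the reference allele, compared with 34.6% and 54.9% in the whole table. When animals rather than reads were the replicates, in the moderated quasi-binomial F test with limma, 85 SNPs (34.6%) were called against a background of 24.6%. At least 1 SNP was called in 30 of the 47 genes, or 63.8%, compared with 59.6% of genes on the rest of OAR20 and a background of 58.5%.

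**Figure D1:**
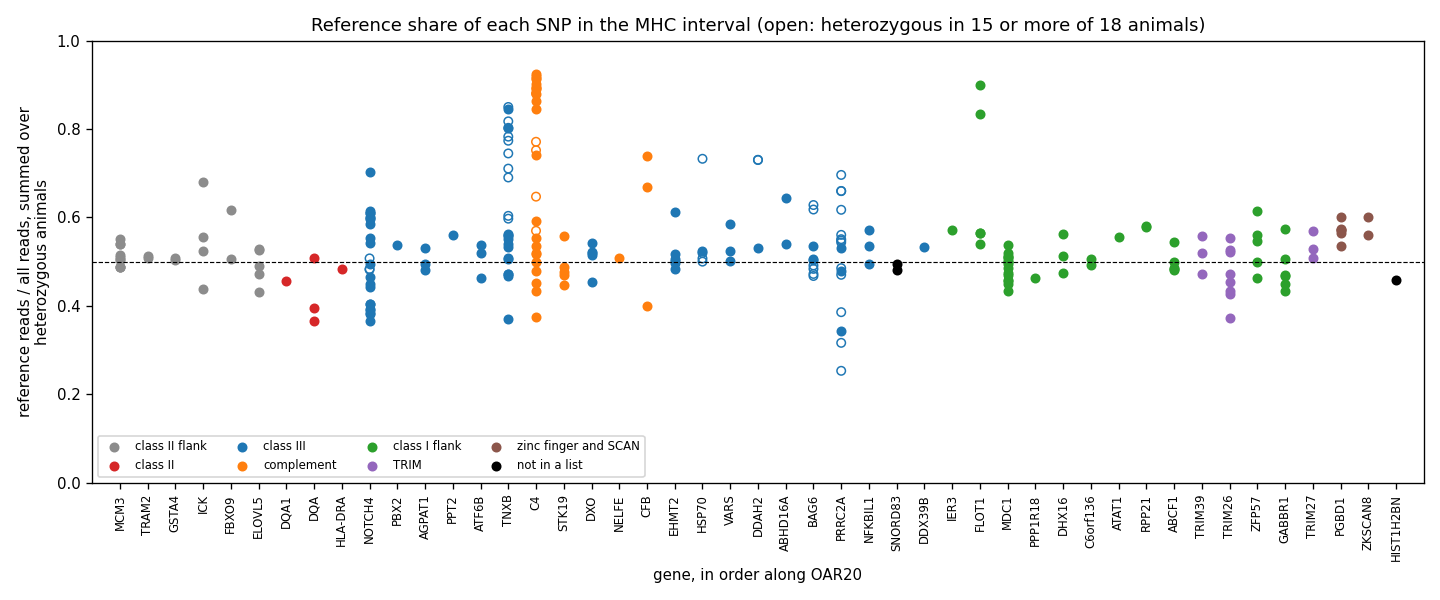
Each point is a SNP of the interval, placed by its gene in order along OAR20 and by its reference share (reads with the reference allele over all reads, summed over heterozygous animals), with colours for the gene lists and open points for SNPs with at least 15 heterozygous animals. C4 and TNXB reach reference shares of 0.925 and 0.850, PRRC2A falls to 0.253, and MCM3 and MDC1 stay near the dashed line at 0.5.

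The calls were unevenly spread over the genes. C4, NOTCH4, TNXB, PRRC2A and BAG6 held 70 of the 108 called SNPs among their 101 SNPs, and the other 42 genes held 38. The complement group had the largest departures, with 26 of 36 SNPs called and a median distance from 0.5 of 0.137, compared with 0.0506 in the class III group and 0.0339 over all tested SNPs. The flank of the class I genes had 13 of 46 called, the flank of the class II genes 4 of 25 and the TRIM genes 2 of 14. Some genes with many SNPs were balanced. In MCM3, a subunit of the replicative helicase, 0 of 10 SNPs were called, and 0 also at an unadjusted P-value under 0.05 or in the quasi-binomial F test, with shares of 0.488 to 0.552. MDC1, a mediator of the DNA damage checkpoint, had 1 of 15 called, with shares of 0.434 to 0.538.

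The reference share of an animal was higher in the interval than on the rest of OAR20. Averaged over its heterozygous SNPs it was 0.557 ± 0.0158 (SD, n = 18) in the interval and 0.526 ± 0.00726 on the rest of OAR20, a mean difference of 0.0311, and it was higher in 18 of 18 animals (sign-flip permutation test, two-sided, p = 1e-05, the smallest the resamples can give). The difference rested on a few genes. Without C4, TNXB, HSP70, DQA and DQA1 it was -0.00547 (permutation p = 0.153). These genes were chosen after seeing the data and were left out of the interval only, so this is a description. Over these 5 genes the animals had a mean share of 0.647 ± 0.0323, from 0.614 to 0.729, and over the other genes of the interval 0.520 ± 0.0107, from 0.498 to 0.539. In the genes with near-identical copies 39 of 60 SNPs were called, 33 of them with the reference allele higher, and in the others 69 of 187 SNPs, 47 with the reference allele higher.

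C4 is the complement component that is cleaved when the classical or lectin pathway is triggered. Of its 27 SNPs 21 were called, 18 with the reference allele higher, and its median share was 0.752. The departures were not even along the gene. From 26510449 to 26515180 the share was between 0.741 and 0.925 at 14 SNPs and between 0.499 and 0.647 at 4. At 26509432 and 26515181, the SNPs next to that stretch, it was 0.434 and 0.374, both called. At the 6 SNPs from 26463944 to 26474680 it was 0.452 to 0.592. At the SNP with the largest statistic, 26502900 (G26502900C, the reference base, the position on OAR20 and the alternate base), all 18 animals were called heterozygous, with 134 to 665 reads each, and their shares ran from 0.638 to 0.890 with a median of 0.780. Among the SNPs heterozygous in fewer than 15 animals, 26512541 had the largest statistic. Its 12 heterozygous animals had shares of 0.847 to 0.924, with a median of 0.889, and all 12 were far above balance (quasi-binomial F test with limma, adjusted P = 1.30e-17). The dispersion between animals there was 1.32, where 1 is counting error alone. In animals called homozygous at this SNP, a mean of 4.71% of reads nevertheless carried the other allele. Over the interval this percentage exceeded 2% at 25 SNPs, of which 12 were in C4 and 9 in TNXB, compared with 9 of 485 SNPs on the rest of OAR20. At the ABHD16A missense SNP 26756555 it was 26.8%, and the 4 animals called heterozygous had shares of 0.608 to 0.669. The part of such reads in the shares was not tested.

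CFB, factor B of the alternative pathway, is also on the list of complement genes, and all 3 of its SNPs were called. At 26547294 the 7 heterozygous animals had shares of 0.644 in RS933, 0.672 in RS969, 0.692 in RS920, 0.705 in RS947, 0.736 in RS918, 0.823 in RS929 and 0.852 in RS919. All 7 were on the side of the reference allele and no animal was near balance (adjusted P = 1.26e-37; quasi-binomial F test with limma, adjusted P = 2.73e-06). Reads of the other allele in homozygous animals were 0.0834% there. At 26546392 the share was 0.668, and at the missense SNP 26545126 it was 0.399, where animals ranged from 0.152 to 0.507. In STK19 2 of 5 SNPs were called, 1 in each direction and neither in the quasi-binomial F test, and the SNP of NELFE, a subunit of the negative elongation factor, had a share of 0.509 and 197 to 272 reads per heterozygous animal.

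Among the class II genes, which encode chains of the proteins that present extracellular peptides, the alternate allele of DQA was higher in the 3′ UTR. At 25670592 the 8 heterozygous animals had shares of 0.143, 0.269, 0.333, 0.371, 0.396, 0.407, 0.407 and 0.440. All 8 were below 0.5, on 14 to 53 reads each (adjusted P = 0.000249; quasi-binomial F test with limma, adjusted P = 0.0100). The neighbouring 25670541 had a share of 0.394 and was called by the summed test, though not by the quasi-binomial F test. The missense SNP 25671449 in the same gene had a share of 0.508, and animals there ranged from 0.314 to 0.933. DQA1 at 25568086 had a share of 0.456, on 103 and 123 reads, and HLA-DRA at 25777646 a share of 0.483, on 144 and 154 (reference first), and neither was called. These genes were sparsely read, with means of 18.9 to 30.3 reads per animal and SNP, so that only a large departure could be seen. Class II reads, summed over the 5 SNPs and divided by the reads of the table (×1e6), ranged from 11.2 to 74.3, with a median of 24.7, and were highest in RS926 and RS953. Across the 18 animals they followed the reads of 10 leukocyte marker genes, of 22 listed, which ranged from 298 to 534 on that scale (Pearson r = 0.602, permutation p = 0.0073; Spearman rho = 0.544, permutation p = 0.0218). Without RS926 and RS953, the animals farthest from the median, r was 0.462 (permutation p = 0.0731). With reads divided by the median depth of the animal instead, r was 0.585 (permutation p = 0.00934) over all animals and 0.528 (permutation p = 0.0376) without these 2. Whether r passed the threshold without them thus depended on the scaling. Spearman rho without them was lower under both scalings, at 0.353 on the first and 0.406 on the second, against 0.546 over all animals on the second. The 10 marker genes were C1QA, C1QB, C1QC, CD14, CD163, CD74, CSF1R, CTSS, LAPTM5 and MRC1. The relation was not computed without CD74 or any other of them. No other relation between levels was computed. In bulk tissue, more leukocytes and more RNA per leukocyte cannot be told apart.

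TNXB, which encodes the matrix protein tenascin X, had 14 of 24 SNPs called, 13 with the reference allele higher, and 10 of the 24 were called heterozygous in 15 or more animals. Its leading SNP 26426336 had a share of 0.850, with animals from 0.766 to 0.921, and the leading SNP heterozygous in fewer animals, 26438116, a share of 0.846 with animals from 0.730 to 0.933. The remaining SNPs heterozygous in fewer than 15 animals gave 3 calls, and the 10 without a call had shares between 0.467 and 0.562. At 12 of the 24 SNPs of TNXB the heterozygous animals differed from each other beyond counting error. HSP70, the stress-inducible chaperone, had the deepest SNP of the interval. At 26649584 the 15 heterozygous animals had 291 to 6912 reads each, shares of 0.572 to 0.832 with a median of 0.773, and a dispersion of 108. At 26649275 in the same gene, 309 bases away in the files' coordinates, the share was 0.524 with animals from 0.465 to 0.547 and a dispersion of 0.464. Reads of HSP70 on the same scale ranged from 93.0 in RS903 to 2470 in RS943, a 26.6-fold range that rests on RS943, since the next highest animal had 1197.

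Departures of this size were also found in other class III genes, while most had smaller ones. DDAH2, an enzyme of methylarginine breakdown, had shares of 0.730 at each of 2 SNPs heterozygous in all 18 animals. These form 1 of the clusters, 2 bases apart, with nearly the same reads (363 and 134, 362 and 134, reference first). The third, 26720624, had a share of 0.531 without a call. In BAG6 the leading SNP, 26789776, had a share of 0.628 and the SNP 26791264, outside the cluster, 0.535. PRRC2A had 13 of 16 tested SNPs called, but only 1 of the called SNPs was heterozygous in fewer than 15 animals. That SNP, 26802326, had a share of 0.342 with animals from 0.220 to 0.517. One further PRRC2A SNP, 26797089, was called heterozygous in 0 animals and could not be tested. Single calls with the reference allele higher were made in the thioesterase PPT2 (0.560), the histone methyltransferase EHMT2 (0.611), NFKBIL1 (0.572) and the RNA helicase DDX39B, which had 663 to 968 reads per heterozygous animal and a share of 0.533. The phospholipid acyltransferase AGPAT1, the homeobox gene PBX2, ATF6B, the decapping enzyme DXO and the valyl-tRNA synthetase VARS had no call, and leading shares of 0.531, 0.539, 0.538, 0.454 and 0.586. At an unadjusted P-value under 0.05, PBX2, ATF6B and VARS each had 1 SNP, and none of the 5 had one in the quasi-binomial F test.

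Outside these lists the largest statistics belonged to FLOT1, FBXO9, ICK, RPP21 and IER3. FLOT1 encodes flotillin 1, a protein of membrane rafts, and all 5 of its SNPs were called with the reference allele higher. At 27363651 in the 3′ UTR the shares were 0.761 in RS917, 0.776 in RS953, 0.855 in RS940 and RS919, 0.863 in RS943, 0.870 in RS929, 0.875 in RS910 and 0.887 in RS902, on 257 to 618 reads each. All 8 heterozygous animals were thus strongly on the side of the reference allele, and 10 others were homozygous for it, with 0.0410% of reads from the other allele. The adjacent SNP 27363650, heterozygous in 2 animals, had a share of 0.899, while 27363957, in the same UTR, had 0.540 and the SNPs 27352739 and 27360475 had 0.564 each. In FBXO9, a substrate adaptor of a ubiquitin ligase, the 10 heterozygous animals at 25076276 had shares of 0.505 to 0.721 and a summed share of 0.616 (adjusted P = 3.91e-12), against 0.505 at 25080806 in the same animals. The kinase gene ICK had 0.679 at 25028877, the RNase P subunit RPP21 0.582 at 27461994 and IER3 0.571 at 27350771. Of the TRIM genes, which encode ubiquitin ligases, TRIM27 had a share of 0.569 at 29052359, higher in 10 of 12 animals, TRIM26 one of 0.372 at 27837922, lower in 6 of 7 animals, and TRIM39 one of 0.558 with no call.

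The percentage of SNPs at which an animal was heterozygous averaged 53.5% ± 14.7 (SD, n = 18) in the interval and 53.5% ± 6.07 on the rest of OAR20. The mean difference was -0.0264 percentage points, with 11 of 18 animals higher in the interval (sign-flip permutation test, two-sided, p = 0.994). Means were thus alike within this spread, and it was the range that was wide. RS917 was heterozygous at 19.5% and RS953 at 23.1% of the SNPs of the interval, whereas RS918 was at 71.7%, RS947 at 70.9%, RS920 at 68.8% and RS969 at 68.0%. On the rest of OAR20 all 18 animals lay between 46.2% and 63.9%. Of the 204 SNPs of the interval heterozygous in fewer than 15 animals, RS917 was heterozygous at 12 and RS953 at 18, and RS918 at 134.

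**Figure D2:**
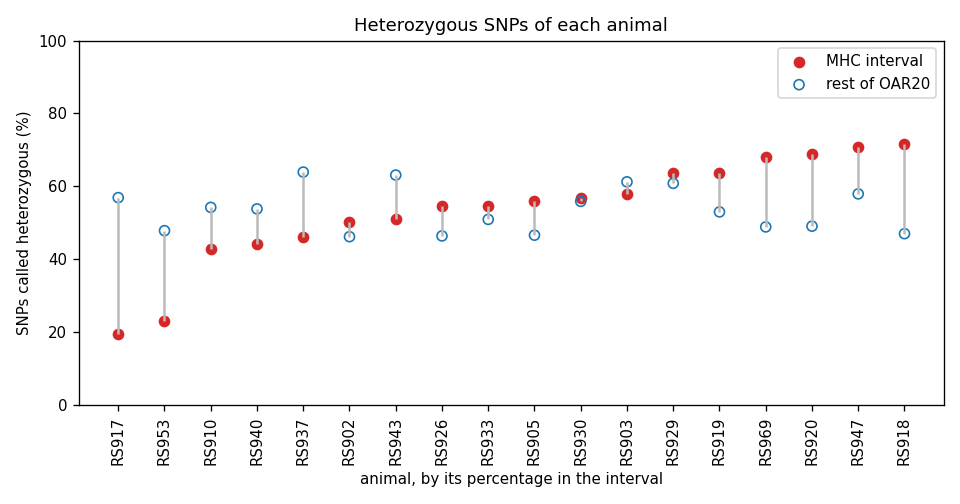
For each of the 18 animals, ordered by the filled point, the vertical axis gives the percentage of SNPs called heterozygous in the MHC interval (filled) and on the rest of OAR20 (open). The interval runs from 19.5% in RS917 to 71.7% in RS918, and the rest of OAR20 from 46.2% to 63.9%.

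Heterozygous animals recurred in the same combinations along the interval. Over the 203 SNPs heterozygous in at least 1 and fewer than 15 animals there were 92 different sets of heterozygous animals, and the 3 most frequent accounted for 52 SNPs. The first set, of 10 animals (RS903, RS905, RS918, RS920, RS926, RS930, RS933, RS937, RS947 and RS969), was found at 22 SNPs in 15 genes from FBXO9 to GABBR1, over 2.98 Mb, at 25 SNPs of OAR20 and at no SNP of another chromosome, the total over the table being 25. The second set, of 6 animals (RS918, RS919, RS920, RS929, RS947 and RS969), was found at 20 SNPs from ELOVL5 to PPP1R18, all of them in the interval. Its 4 animals that are also in the first set are the 4 with the highest heterozygosity. The SNPs that define the sets are counted in that percentage, so this ranking is partly given by the definition.

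The first set was compared with the other genotypes. Where a SNP has animals homozygous for the reference allele and animals homozygous for the alternate allele, the fetuses of one sire can only be of both kinds if the sire transmitted both alleles. At 86 of 88 such SNPs of the interval (97.7%), all homozygotes of one kind belonged to the first set and all of the other kind to the other 8 animals. The same split held at 6 of 54 such SNPs of OAR20 within 3 Mb of the interval, at 13 of 142 farther away and at 79 of 8986 (0.879%) on other autosomes. The exceptions in the interval were DQA1 25568086, with 1 animal against the split, and DQA 25670541, with 5. At 32 to 33 Mb all 47 such SNPs had 1 animal against it. The first set and the other 8 animals were therefore taken to carry different haplotypes of the sire over the interval, with the sire's allele read from the homozygotes. An allele was so assigned at 202 of the 204 SNPs, and the haplotypes of the sire differed at 116 of them. At 30 SNPs the allele of one haplotype was taken as the opposite of the other.

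With the sire's allele known, the SNPs of a gene could be given 1 direction. The share of reads with the sire's allele was averaged over the heterozygous SNPs of a gene in each animal. In 32 genes with at least 3 animals of each haplotype, the median over genes of the mean share was 0.502 in the first set and 0.495 in the other animals. In 4 of the 32 genes, or 12.5%, the animals of the haplotypes did not overlap: NOTCH4, FLOT1, RPP21 and ZKSCAN8. These genes were singled out after their values were seen and are described without a test. Genes outside the interval were not phased.

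**Figure D3:**
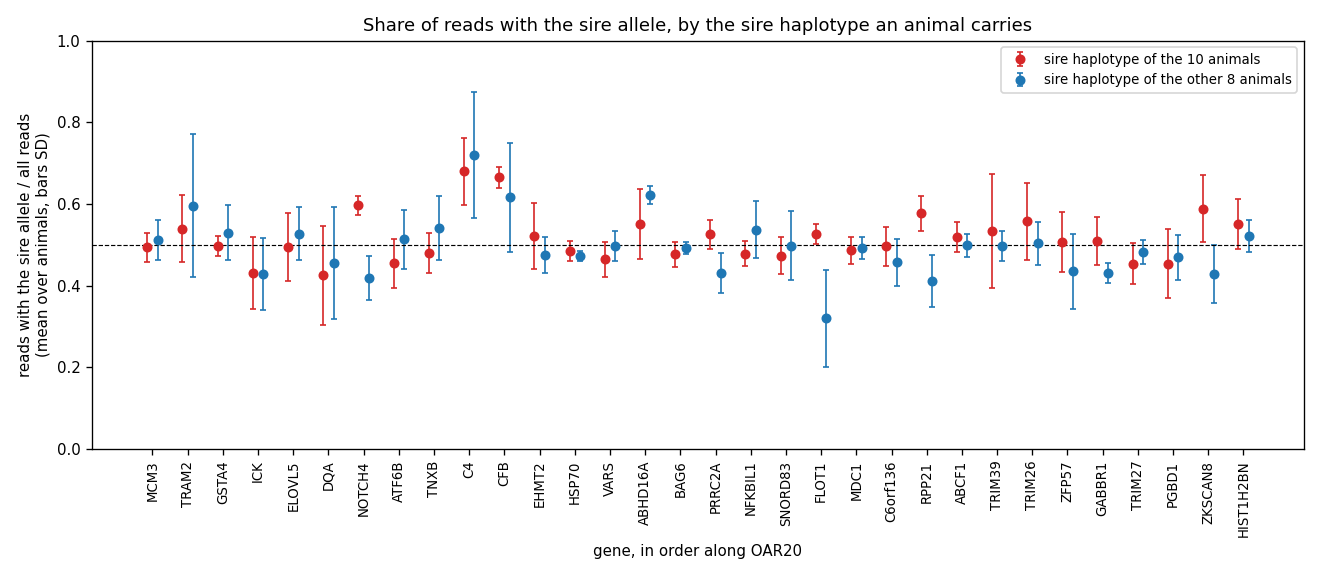
For each of the 32 genes with at least 3 informative animals of each haplotype, points give the mean over animals of the share of reads with the sire's allele and bars the SD, in red for the 10 animals of the first set and in blue for the other 8. NOTCH4 has means of 0.596 and 0.419 on either side of the dashed line at 0.5, and in CFB and C4 both haplotypes are above it.

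NOTCH4 encodes a Notch receptor best known from the endothelium of blood vessels. By SNP its direction looked mixed, since 8 of its 17 called SNPs were higher for the reference allele and 9 for the alternate allele. Averaged by animal and haplotype, it was the same within each haplotype. In the 10 animals of the first set the share of the sire's allele was 0.596 ± 0.0229 (SD, n = 10), from 0.555 in RS930 to 0.626 in RS933, and all 10 were above 0.5. Among the other animals 5 were informative, with shares of 0.354 in RS902, 0.387 in RS943, 0.411 in RS910, 0.453 in RS929 and 0.489 in RS919, all below 0.5. The last 2 rest on 3 SNPs each and the first 3 on 14 to 16. In the first set the share was 0.616 where the sire's allele was the reference allele and 0.588 where it was the alternate allele, in 10 animals each. In the other animals it was 0.418 in the 3 animals with a SNP of the first kind and 0.396 in 5 with one of the second. At most SNPs scored in both groups, however, the sire's haplotypes carried opposite alleles, and the same allele was mostly higher in both groups. The reference allele was higher in 9 of 9 heterozygous animals at 26310826, and the alternate allele in 12 of 12 at 26311017. Both haplotypes carried the alternate allele at 26302455 and 26325345. There the first set had means of 0.660 and 0.528, and the other animals 0.429 and 0.385. Single SNPs were less uniform. At 26305613 the first set had a mean share of 0.544 and the other animals 0.515, at 26311907 the 1 other animal had 0.519, and at 26321785 the first set had a mean of 0.506 with animals from 0.373 to 0.667. The leading SNP of NOTCH4, 26310826, had a reference share of 0.703 with animals from 0.552 to 0.784.

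**Figure D4:**
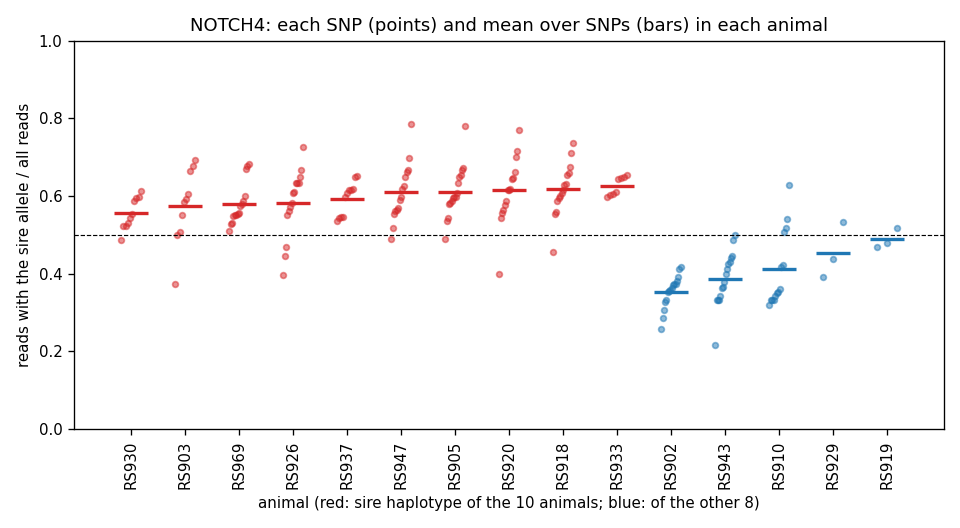
For each of the 15 animals informative in NOTCH4, points give the share of reads with the sire's allele at each heterozygous SNP and the bar their mean. The 10 animals of the first set (red) have means of 0.555 to 0.626 and the 5 others (blue) means of 0.354 to 0.489, and single SNPs of an animal scatter on both sides of its mean.

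RPP21 had the same order on fewer data. The 3 animals of the first set had 0.534, 0.578 and 0.620. The 5 others had 0.346, 0.361, 0.401, 0.447 and just under 0.5. As at most NOTCH4 SNPs scored in both groups, the sire's haplotypes carried opposite alleles at both RPP21 SNPs. The sire's allele there was the reference in the first set and the alternate in the others. The reference allele was higher in 8 of 8 heterozygous animals at 27461994 and in 7 of 8 at 27461123. The same allele was thus mostly higher in both groups. ZKSCAN8, a zinc finger gene, had means of 0.589 in 3 animals and 0.428 in 6. Here too the sire's allele was the reference in the first set and the alternate in the others. The reference allele was higher in 8 of 8 heterozygous animals at 29512130 and in 6 of 8 at 29517418. In FLOT1 the means were 0.527 in 5 animals and 0.320 in 8, but those 8 are the heterozygous animals of 27363651, where the sire's allele was inferred as the alternate one. Without inferred alleles the difference was 0.0403, and with only the SNPs at which the sire's allele is the reference allele the difference turned to -0.368. In PRRC2A the means were 0.525 and 0.432, with all 6 animals outside the first set below 0.5. These means come from different SNPs. The first set was scored at 26800293, and only RS937 of it also at 26802326 and 26807215. The other 6 animals were scored at 26802326 and 26807215 alone. CFB had means of 0.665 in 5 animals and 0.616 (SD 0.134) in 6, with the sire's allele higher in 5 of 5 and 5 of 6. The 6 were uneven. RS902, RS943, RS910 and RS940 had 0.493, 0.505, 0.547 and 0.583 on 1 SNP each. That SNP was 26545126, where the sire's allele was the alternate. The first set was scored only at 26546392 and 26547294, where it was the reference. RS919 and RS929 had 0.806 and 0.760 on 3 SNPs each. C4 had 0.679 and 0.720. MDC1, with 15 SNPs, had 0.486 and 0.492, and MCM3, with 10, had 0.493 and 0.511.

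A simpler rule took at each SNP the allele found homozygous in at least 3 animals while the other allele was homozygous in none. The share of reads with that allele in the heterozygous animals was tested by gene with sign-flip permutation tests, adjusted over the 4251 genes of the table that could be tested. In the interval 5 of 39 genes were called, which is near the background of 11.6%: C4 (0.705 ± 0.115, n = 18), TNXB (0.654 ± 0.0934, n = 18), HSP70 (0.613 ± 0.0720, n = 15), FBXO9 (0.560 ± 0.0352, n = 10) and NOTCH4 (0.438 ± 0.0475, n = 15). The first 4 were above 0.5 and NOTCH4 below it. With only SNPs at which that allele is the alternate one, 0 of 14 genes were called by this permutation test and 5 had an unadjusted P-value under 0.05, where 178 of 1858 genes of the whole table were called.

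Finally, heterozygous animals were compared with each other. Their shares differed beyond counting error, by a chi-square test adjusted over all SNPs, at 40 of 246 SNPs (16.3%), near the background of 15.4% and below 22.7% on the rest of OAR20. TNXB had 12 and C4 11 of the 40, and without the 5 genes with near-identical copies 15 of 186 SNPs (8.06%) differed. The SNPs with the largest dispersion were HSP70 26649584, the missense SNP C4 26515181 and C4 26510886, at 108, 18.7 and 18.3. At C4 26515181 the heterozygous animals were the 12 that belong to the first or the second set. RS918, RS920, RS947 and RS969, which belong to both, had shares of 0.153, 0.0769, 0.156 and 0.104. The other 8 had shares of 0.465 to 0.571, so the groups did not overlap. The same 4 animals had the 4 lowest shares at HSP70 26649584, between 0.572 and 0.620, while the other 11 were between 0.667 and 0.832. At C4 26510886 they had 0.183 to 0.400, the 6 animals of the first set alone had 0.633 to 0.758, and the 6 animals in neither set ranged from 0.259 to 0.804. These SNPs were chosen for their spread, so the values are a description, and the number of C4 or HSP70 copies in each animal was not analysed here.

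**Figure D5:**
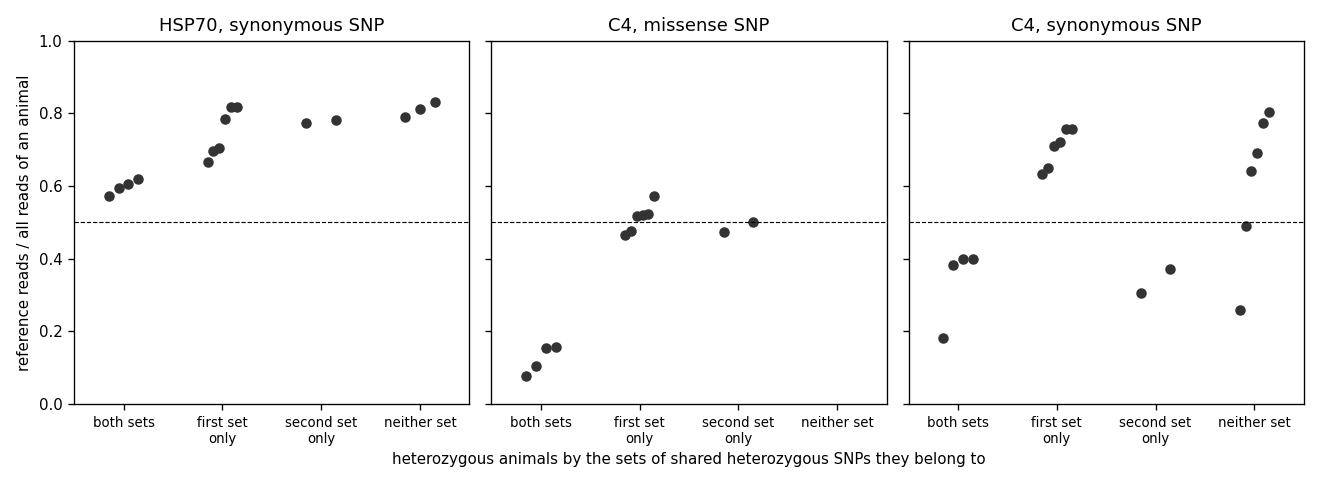
For the 3 SNPs of the interval with the largest dispersion between animals, each point is the reference share of a heterozygous animal, grouped along the horizontal axis by membership in the first and second sets of animals with shared heterozygous SNPs. The 4 animals in both sets are the lowest at the HSP70 SNP (0.572 to 0.620) and at the C4 missense SNP (0.0769 to 0.156).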

How the data were processed

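RNA from 18 fetuses was sequenced as paired end reads. The authors aligned the reads with STAR to Oar v3.1, allowing up to 10 mismatches and keeping uniquely placed reads, called SNPs and genotypes from the same reads with GATK (version 3.4-46 in the submitters' processing notes), and kept SNPs in ENSEMBL genes, outside simple repeats, where both alleles had 10 or more reads in 5 or more animals. The deposited values are whole counts of reads of each allele per SNP and animal, without normalization, as the authors made them, beside the genotype calls. Since genotypes were called from the same reads, a SNP with a very unequal share could be called homozygous. The authors also deposited a chi-square score, P-values, higher alleles and proportions of their own comparison, which were not used.

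Shares of reads were computed from these counts. AI was tested as in the study, by a likelihood ratio test for Poisson counts, on reads summed over animals called heterozygous (numpy 2.4.6, scipy 1.17.1), with Benjamini-Hochberg adjustment over all 24,244 tested SNPs of the table, and with a moderated quasi-binomial F test (limma 3.58.1 in R 4.3.3) that takes the animals as replicates. Differences between animals were tested by Pearson's chi-square, and values per animal by sign-flip permutation tests, exact under 10 animals and with 100000 resamples otherwise. The steps were checked on simulated data. The named genes are those of the class I, class II, complement, class III and TRIM lists plus the 5 others with the largest statistic, each given by the SNP with the largest statistic and, where that was heterozygous in 15 or more animals, also by the leading one among the rest. Members and lists were chosen with earlier results of these data known. The test by the allele seen homozygous had been planned with adjustment over the genes of the interval and is adjusted over all genes here. Since it takes no account of a sire with both alleles, the split by sire haplotype was added after seeing the data. Each library is 1 fetus, and counts of reads are not independent molecules, so P-values of the summed test cover counting error only. How strand was treated in counting is not given in the sources used here. Alternatives are given in the closing section. Gene names are those of the table. Of the 47 symbols, 38 were also in the RefSeq gene table of another assembly, which was used for nothing else.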

Additional observations from a re-analysis of the deposited data

Results flagged for a closer look

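In NOTCH4 the share of reads with the sire's allele was above 0.5 in every informative animal of the first set and below 0.5 in every other informative animal, a difference of the means of 0.177 over 15 animals. At most NOTCH4 SNPs scored in both groups the sire's haplotypes carried opposite alleles, and the same allele was mostly higher in both groups. In RPP21 the difference was 0.166 over 8 animals. There the sire's allele was the reference in the first set and the alternate in the others. The reference allele was higher in 8 of 8 heterozygous animals at 27461994 and in 7 of 8 at 27461123. Neither difference was tested. None of the 26 leading SNPs with 4 to 10 heterozygous animals had an animal far from the others by Dixon's criterion, which by chance marks about 1 group in 20.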

How the results depend on the processing

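Requiring at least 30 reads of each allele in 5 heterozygous animals left 52 called SNPs of 95 (54.7%, against 48.3% of all SNPs) and 16 called genes of 24, since fewer were tested. Chosen after seeing the data, leaving out C4, TNXB, HSP70, DQA and DQA1 gave 69 called SNPs of 186 (37.1%, against 37.9% of all SNPs) and leaving out SNPs within 10 bases of another 71 of 190 (37.4%, against 33.3% of all SNPs). SNPs that differ between animals numbered 70 at an unadjusted P-value under 0.05 and 15 without the genes with near-identical copies. The mean difference in reference share was -0.00547 without those genes, kept its sign and its call under the other settings, and was 0.0277 to 0.0321 without any 1 animal. The difference in heterozygous SNPs, close to 0, was 0.424 percentage points against all other autosomes, 0.0720 with at least 20 reads and 0.252 for 25 to 29 Mb, ran from -1.48 to 2.17 without any 1 animal, and was called in none of these. Without any 1 animal 104 to 112 SNPs and 27 to 31 genes were called and 33 to 40 SNPs differed between animals. By the allele seen homozygous, 0 of 14 genes were called when it was the alternate allele, and 178 of 1858 in the whole table. The correlation of class II and leukocyte reads was 0.585 per median depth. The NOTCH4 difference was 0.161 to 0.195 without any 1 animal and 0.171 to 0.198 with other choices of SNPs, and that of FLOT1 was 0.0403 without inferred alleles and -0.368 with reference alleles only. Of 27 called leading SNPs, the median share as the balance point lost 5 (PPT2 26360975, HSP70 26649275, BAG6 26791264, NFKBIL1 26872293 and DDX39B 26887593) and the quasi-binomial F test 3 (STK19 26518863, BAG6 26791264 and NFKBIL1 26872293). NFKBIL1 was also lost without RS929 (share 0.542) or RS933 (0.561). Calls were gained in PBX2 without RS926 or RS930 (0.546 each), in ATF6B without RS910 (0.556), RS918 (0.551) or RS929 (0.543), and in VARS without RS929 (0.603) or RS947 (0.601).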
